A study of Mus musculus with 3 samples.

Results

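The disease-associated microglia genes are transcripts that brain macrophages raise around plaques, damaged myelin and dying neurons, and that a population of microglia in early postnatal white matter also carries. The 8 genes described here, Trem2, Tyrobp, Cd9, Igf1, Cst7, Spp1, Lgals3 and Gpnmb, were taken by name, and all 8 were found among the 20586 genes of the deposited count table. The table holds molecule counts (UMIs, unique molecular identifiers) of 7598 CD45+ cells sorted from mouse thalamus, a gate for leukocytes that takes in microglia, 4 hours after an intracerebroventricular injection. There are 3 libraries, 1 per group. In cKO IL-33, mice heterozygous for Cx3cr1-creER and homozygous for floxed ST2, the receptor chain for IL-33 encoded by Il1rl1, received IL-33, an IL-1 family cytokine. In WT IL-33, mice heterozygous for Cx3cr1-creER received IL-33. In WT vehicle, mice heterozygous for Cx3cr1-creER received vehicle. All 3 groups thus carried the same inducible recombinase, driven from the gene of the fractalkine receptor, which microglia and other brain macrophages express. Mice with floxed ST2 that received vehicle were not analysed here, so the genotype alone and the response to IL-33 in that genotype cannot be told apart. The labels used here state neither the age of the mice, nor how many were pooled per library, nor whether and when the recombinase was induced.

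The gene set runs from a receptor to secreted factors. TREM2 is a surface receptor for lipids and lipoproteins that has no signalling motif of its own and passes its signal through the adaptor TYROBP (DAP12), which recruits the kinase SYK. In mouse models of amyloid disease, microglia first raise Tyrobp and Apoe and lower homeostatic genes, and in a later, Trem2-dependent step raise Cst7, Spp1, Cd9, Lpl and other genes. Before and shortly after birth, amoeboid microglia of axon tracts carry Spp1, Gpnmb, Igf1 and Lgals3.

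The libraries held 2687 cells and 17480958 UMIs in cKO IL-33, 2202 cells and 12127214 UMIs in WT IL-33, and 2709 cells and 18269042 UMIs in WT vehicle. Median depth per cell was 5119 UMIs in cKO IL-33, 3951 in WT IL-33 and 5544 in WT vehicle. At least 3 of 8 microglial markers were detected in 99.9% to 100% of the cells of each library, and all 8 markers were present in every library. Their summed level was 23336 CPM (UMIs scaled to a common library total) in cKO IL-33, 14937 CPM in WT IL-33 and 21913 CPM in WT vehicle. Il1rl1 stood at 12.8, 5.77 and 11.6 CPM in cKO IL-33, WT IL-33 and WT vehicle. Since these are tags from the 3′ end of transcripts and the labels do not place the floxed stretch, that level checks nothing about the deletion. The authors called 2648 of the cKO IL-33 cells, 1107 of the WT IL-33 cells and 8 of the WT vehicle cells female, so that cKO IL-33 was almost all female-called and WT vehicle almost all male-called. Xist and Y-linked UMIs stood together in 3 cells of cKO IL-33, 305 of WT IL-33 and 7 of WT vehicle. Pairs of libraries shared 0 or 1 cell barcodes. The deposited table sorts the cells into 6 numbered clusters without names. Of the WT IL-33 cells, 1815 were in cluster 1, which held 35 cells of cKO IL-33 and 20 of WT vehicle. Cluster 0 was the largest in the other libraries, with 1374 cells of cKO IL-33 and 1327 of WT vehicle.

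With 1 library per group there is no replicate check, and no test was made. Each interval below is a 95% interval for counting error only, exact Poisson for a level, exact binomial for a ratio or a share. It holds neither the spread between mice nor between library preparations. A gene was counted as apart where it reached 50 CPM in either library, differed at least 2-fold, and had an interval of the ratio that left out 1. The WT IL-33 library enters both of the comparisons that show differences, and a value peculiar to it moves both. Likewise each other library enters a pair of comparisons.

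Upstream sequence is shown for the receptor gene, which differed most of the 3 abundant genes, and for Cst7, which was higher where Trem2 was lower. The stretches are the 250 bases before the start given by RefSeq on GRCm38.p6, both on the plus strand, chr17:48346151-48346400 for Trem2 and chr2:150570165-150570414 for Cst7, 5′ to 3′. Capitals mark a match to 1 of 4 motifs searched on both strands.
Trem2: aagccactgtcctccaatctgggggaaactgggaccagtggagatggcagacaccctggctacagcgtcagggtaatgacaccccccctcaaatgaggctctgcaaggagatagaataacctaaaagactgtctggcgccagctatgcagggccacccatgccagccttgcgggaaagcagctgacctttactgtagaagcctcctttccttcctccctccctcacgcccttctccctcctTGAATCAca
Cst7: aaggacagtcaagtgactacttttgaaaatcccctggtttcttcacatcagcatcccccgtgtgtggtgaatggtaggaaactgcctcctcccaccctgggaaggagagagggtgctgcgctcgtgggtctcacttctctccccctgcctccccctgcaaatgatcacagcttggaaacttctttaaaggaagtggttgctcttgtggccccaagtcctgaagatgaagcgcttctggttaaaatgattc
The motifs were GGG and CC with 5 bases of any kind between them (NF-kB), TGANTCA (AP-1), CACGTG (E-box) and GAGGAAGT (PU.1), which stood in 45.8%, 6.75%, 6.02% and 2.44% of 32851 mouse promoter windows of this length. The Trem2 window held 1 match, TGAATCA, 9 bases before the start, in capitals above, and the Cst7 window held none. Of the 7 genes with a window in the table, Igf1 held the same letters, TGAATCA, 37 bases before its RefSeq start and an NF-kB match 96 bases before it. Spp1 held a PU.1 match, Cd9 had 2 and Lgals3 had 3 matches to the NF-kB motif, of which a pair in Lgals3 overlapped, and the Gpnmb window held none. The Igf1 and Lgals3 windows lie inside the span GENCODE gives for the gene, and so does the second Spp1 window, which held no match. The Cd9 window overlaps the 5′ end of its gene. Positions in these windows are therefore counted from the RefSeq start and need not be upstream of the gene. No match of 1 motif overlapped a match of another. A match describes letters and not a bound site.

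Of the 8 genes, Trem2, Tyrobp and Cd9 were found in most cells of every library, vehicle included, and the other 5 in at most 7.57% of the cells of any library. The genes differed in both directions. In WT IL-33 against WT vehicle, Trem2 was 1.46-fold and Igf1 8.07-fold lower, Cd9 was 1.11-fold and Cst7 1.99-fold higher, while the Spp1 and Lgals3 ratios rested largely on single cells. In cKO IL-33 against WT vehicle, Trem2, Tyrobp and Cd9 each differed by 1.13-fold or less.

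**Figure D1:**
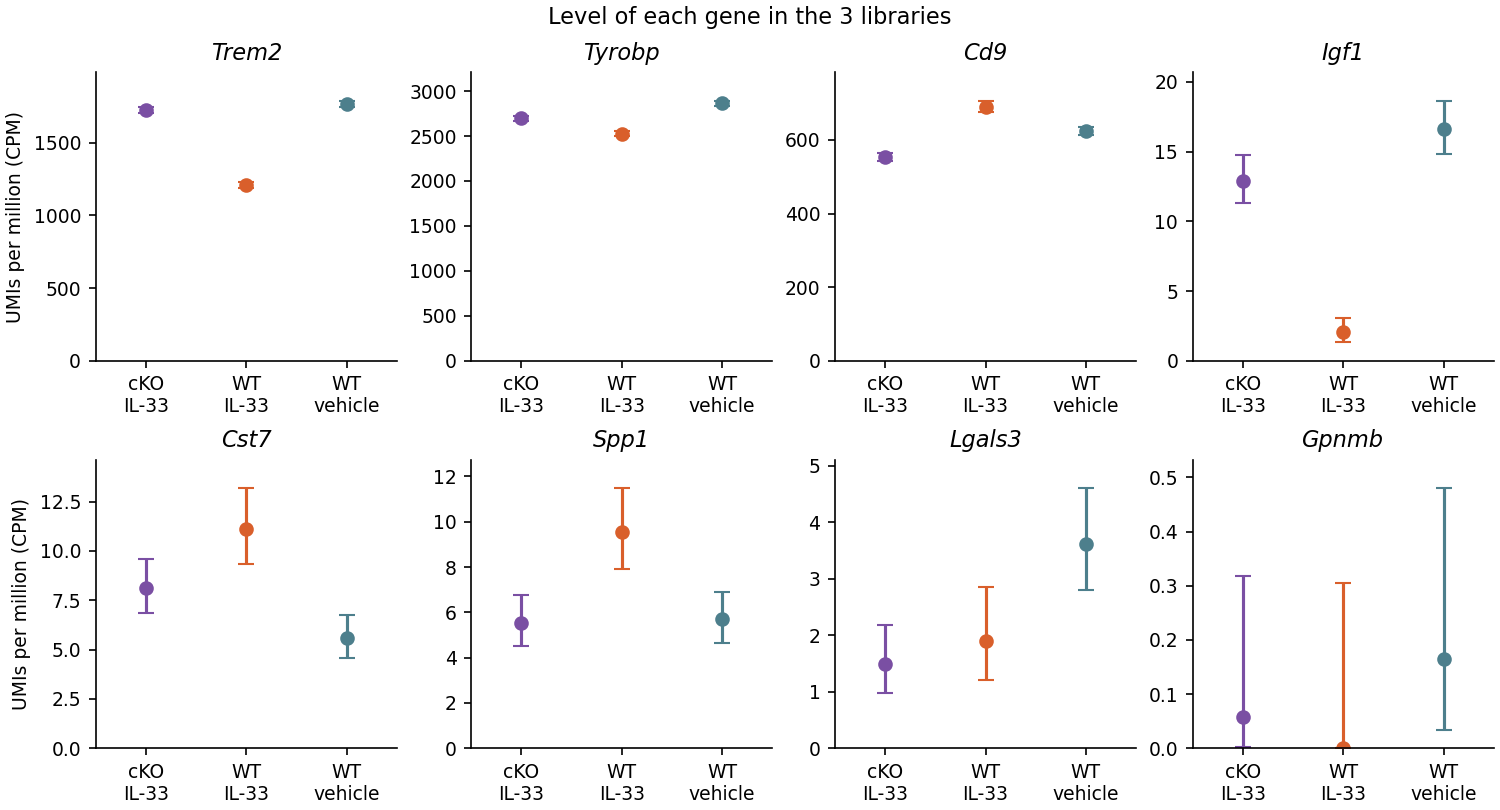
CPM (vertical, linear from 0, with its own scale for each gene) of the 8 genes in cKO IL-33, WT IL-33 and WT vehicle, 1 library each, with 95% Poisson intervals as bars. Trem2 and Igf1 are lowest in WT IL-33 and Cd9 and Cst7 are highest there. The Spp1 point of WT IL-33 includes 1 cell with 78 of its 116 UMIs.

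**Figure D2:**
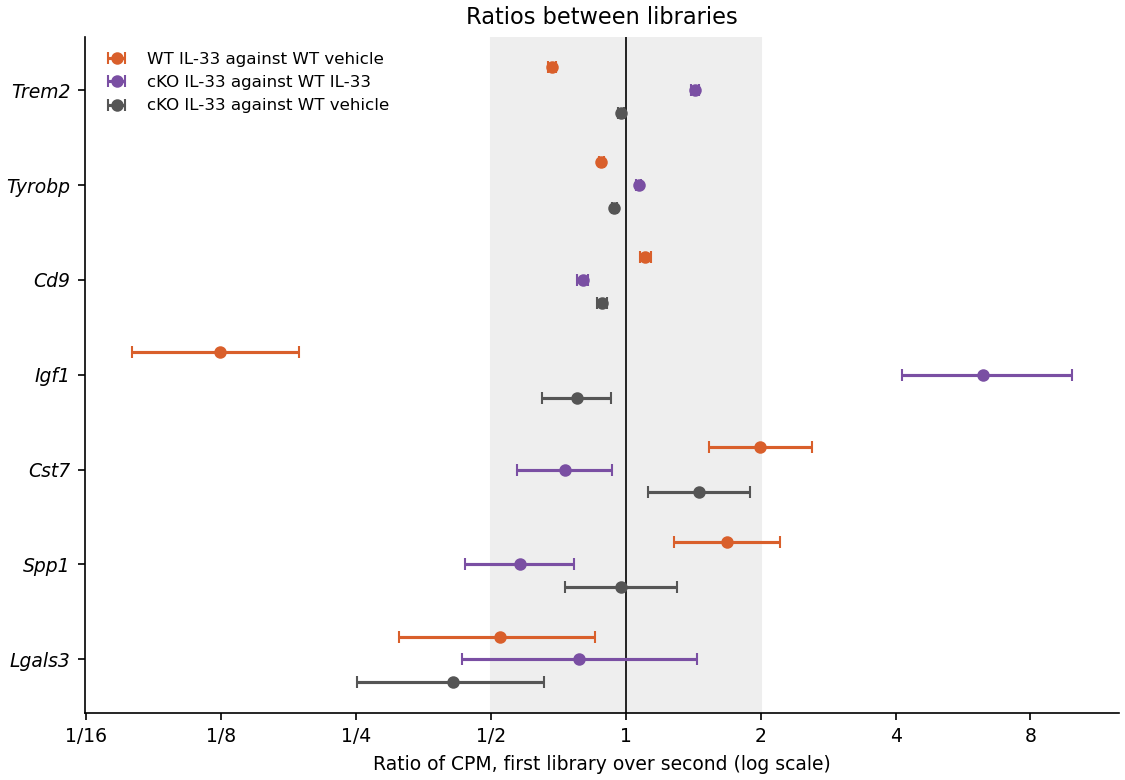
Ratio of CPM, first library over second (horizontal, log scale), for 7 genes in the 3 comparisons, with exact 95% intervals for counting error as bars. Grey marks less than 2-fold, and Gpnmb is left out because WT IL-33 had 0 UMIs. Only the 2 Igf1 ratios that involve WT IL-33 (8.07-fold lower and 6.27-fold higher) have intervals wholly outside the grey band.

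Trem2 (chr17:48346401-48354147, GRCm38) was lower in WT IL-33 than in both other libraries, and this was the clearest difference among the abundant genes of the set. Its level was 1725 CPM in cKO IL-33 (interval 1706 to 1745, 30162 UMIs), 1209 CPM in WT IL-33 (1189.8 to 1229, 14665 UMIs) and 1766 CPM in WT vehicle (1747 to 1785, 32260 UMIs). WT IL-33 thus stood apart from the other libraries, which lay close together. Relative to WT vehicle, Trem2 in WT IL-33 was 1.46-fold lower (1.43 to 1.49). In cKO IL-33 it was 1.43-fold higher than in WT IL-33 (1.40 to 1.46) and 0.977 times its level in WT vehicle (0.962 to 0.993). The genes at 50 CPM that were at least 2-fold apart between WT IL-33 and WT vehicle made up 21.5% of 4104 (12.8% higher, 8.75% lower), and 0 of the 3 genes of the set that reached that level, Trem2, Tyrobp and Cd9, were among them. Between cKO IL-33 and WT IL-33 the share was likewise 21.5%, of 4151 genes (10.0% higher, 11.4% lower). Between cKO IL-33 and WT vehicle it was 0.474% of 3585 genes. In both, 0 of the 3 were among them. At 1.5-fold the share was 42.1% in WT IL-33 against WT vehicle. It was 40.8% when cKO IL-33 was set against WT IL-33, and 2.29% when cKO IL-33 was set against WT vehicle. Trem2 was under that limit in all 3 comparisons.

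Tyrobp (chr7:30413760-30417585), the adaptor, differed much less. It had 2696 CPM in cKO IL-33 (2671 to 2719.95), 2523 CPM in WT IL-33 (2495 to 2552) and 2863 CPM in WT vehicle (2839 to 2888). WT IL-33 was 1.13-fold below WT vehicle (1.12 to 1.15), and cKO IL-33 lay in between. Counted against the adaptor, there were 64.0 Trem2 UMIs per 100 Tyrobp UMIs in cKO IL-33 (63.1 to 64.9), 47.9 in WT IL-33 (47.0 to 48.9) and 61.7 in WT vehicle (60.8 to 62.5). The receptor transcript was therefore lower in WT IL-33 also relative to its partner.

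Per cell, the Trem2 difference was spread over the distribution. After every cell was thinned to 3000 UMIs, which left out 86 cKO IL-33, 353 WT IL-33 and 77 WT vehicle cells, the median cell held 5 Trem2 UMIs in cKO IL-33, 3 in WT IL-33 and 5 in WT vehicle. The 10th and 90th percentiles were 2 and 9 UMIs in cKO IL-33, 1 and 7 in WT IL-33, and 2 and 9 in WT vehicle. A Trem2 UMI was present in 98.3% of the thinned cells of cKO IL-33 (97.8% to 98.8%), 94.1% in WT IL-33 (92.9% to 95.1%) and 98.4% in WT vehicle (97.8% to 98.8%). Without thinning these shares were 99.5% in cKO IL-33, 96.8% in WT IL-33 and 99.4% in WT vehicle. For Tyrobp the thinned medians were 8 UMIs in cKO IL-33, 7 in WT IL-33 and 8 in WT vehicle, and 99.8% of cells had a UMI in all 3 libraries. In the thinned cells Trem2 in WT IL-33 was 0.668 times its level in WT vehicle (0.648 to 0.688), about as low as in all cells.

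**Figure D3:**
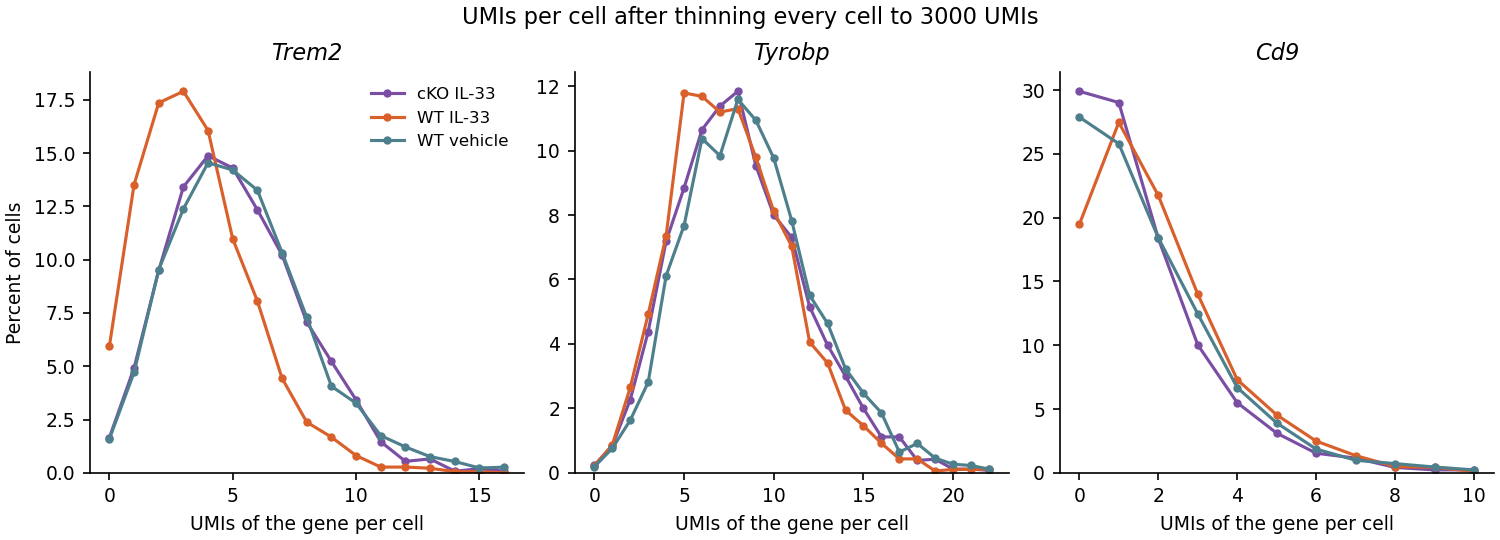
UMIs of Trem2, Tyrobp and Cd9 per cell (horizontal) against the percent of cells of each library (vertical), after every cell was thinned to 3000 UMIs. The Trem2 curve of WT IL-33 peaks at lower counts than those of cKO IL-33 and WT vehicle (median 5 UMIs in cKO IL-33, 3 in WT IL-33 and 5 in WT vehicle), the Tyrobp curves lie close together, and the Cd9 curve of WT IL-33 has fewer cells at 0.

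Cells of the same sex call gave the same direction. Among male-called cells Trem2 had 1095 CPM in the WT IL-33 library and 1765 CPM in WT vehicle, a ratio of 0.621 (0.603 to 0.639). Among female-called cells without a Y-linked UMI, which left out the 305 mixed cells of WT IL-33, its level was 1724 CPM in cKO IL-33, against 1318 CPM in WT IL-33, a ratio of 1.31 (1.27 to 1.35). Within WT IL-33, Trem2 was 1.20-fold higher in the 802 such female-called cells than in the 1095 male-called cells (1.16 to 1.25), and both lay below the other libraries. A sex-matched form of cKO IL-33 against WT vehicle could not be made.

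Within deposited clusters that held at least 50 cells of both libraries, Trem2 was lower in WT IL-33 than in WT vehicle in 4 of 4 (clusters 0, 2, 3 and 5), at 0.763 to 0.945 times its level there, and the interval lay below 1 in 3 of them. In cluster 5 it had 1230.5 CPM in WT IL-33 and 1612 CPM in WT vehicle. In cluster 2 it had 1552 CPM in WT IL-33 and 1642 CPM in WT vehicle, and the interval of that ratio included 1 (0.872 to 1.02). The lowest Trem2 level of any library and cluster of this size was the 1168 CPM (1147 to 1188) of WT IL-33 cluster 1, where 1815 of its cells lay. The other WT IL-33 clusters of at least 50 cells had higher levels, from 1230.5 CPM in cluster 5 to 1602 CPM in cluster 0. Between cKO IL-33 and WT vehicle, the ratio for Trem2 lay between 0.924 and 1.01 in the 5 clusters compared. Tyrobp had its highest levels in clusters 0 and 3 and its lowest in clusters 2 and 4, in each library that had 50 cells there. In cluster 3 it was level between WT IL-33 and WT vehicle, at 3039 CPM in WT IL-33 and 3038 CPM in WT vehicle.

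**Figure D4:**
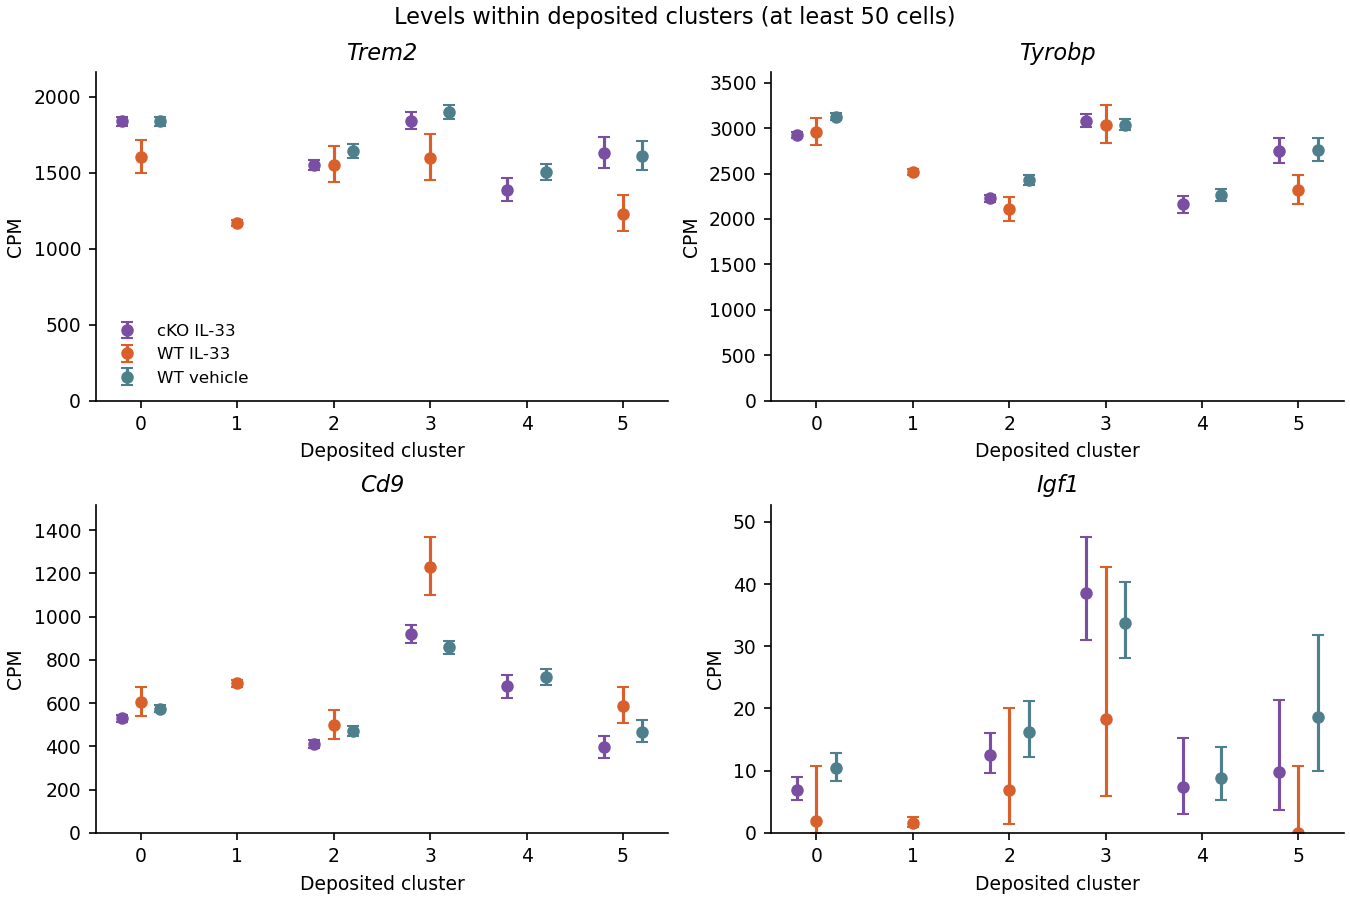
CPM (vertical, linear from 0) of Trem2, Tyrobp, Cd9 and Igf1 in each deposited cluster (horizontal), with cKO IL-33, WT IL-33 and WT vehicle side by side and 95% Poisson intervals as bars. Groups under 50 cells are left out. Trem2 of WT IL-33 is lowest in cluster 1 (1168 CPM), and Cd9 and Igf1 are highest in cluster 3.

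Cd9 (chr6:125460266-125494791), a tetraspanin of the cell surface, was the only one of the 3 abundant genes to be higher in WT IL-33. It had 553 CPM in cKO IL-33 (542 to 564), 691 CPM in WT IL-33 (676 to 706) and 625 CPM in WT vehicle (613 to 636). The 3 intervals did not overlap, with WT IL-33 highest and cKO IL-33 lowest. WT IL-33 was 1.11-fold above WT vehicle (1.07 to 1.14), and cKO IL-33 was 1.25-fold below WT IL-33 (1.21 to 1.29) and 1.13-fold below WT vehicle (1.10 to 1.16). In thinned cells a Cd9 UMI was present in 70.1% (68.3% to 71.8%) of cKO IL-33, 80.5% (78.7% to 82.3%) of WT IL-33 and 72.1% (70.4% to 73.8%) of WT vehicle cells. Without thinning these were 83.7% in cKO IL-33, 86.5% in WT IL-33 and 86.7% in WT vehicle. More cells thus had Cd9 in WT IL-33 at equal depth, although the level differed little. Within clusters, WT IL-33 was above WT vehicle in 4 of 4, with the interval above 1 in clusters 3 and 5. In cluster 3, where Cd9 was highest in each library, it had 919 CPM in cKO IL-33, 1228 CPM in WT IL-33 and 859 CPM in WT vehicle. For WT IL-33 against WT vehicle in that cluster the ratio was 1.43 (1.27 to 1.60).

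Igf1 (chr10:87858265-87937042), a secreted growth factor, differed most of the set, at a low level. It had 12.9 CPM in cKO IL-33 (11.3 to 14.7, 226 UMIs), 2.06 CPM in WT IL-33 (1.33 to 3.04, 25 UMIs) and 16.6 CPM in WT vehicle (14.8 to 18.6, 304 UMIs). In WT IL-33 it was 8.07-fold below WT vehicle (5.36 to 12.7), and in cKO IL-33 it was 6.27-fold above WT IL-33 (4.14 to 9.90). In cKO IL-33 it was 1.29-fold below WT vehicle (1.08 to 1.54), the smaller of the differences. Igf1 did not reach 50 CPM. At a minimum of 10 CPM, 10.4% of 8814 genes were at least 2-fold lower in WT IL-33 than in WT vehicle and 1 of 5 genes of the set, Igf1, was one of them. On that footing 10.9% of 8853 genes were at least 2-fold higher in cKO IL-33 than in WT IL-33, again with Igf1 the 1 of 5. Among those genes its log2 difference stood at percentile 0.77 from below for WT IL-33 against WT vehicle.

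The Igf1 UMIs were spread over many cells. They came from 162 cells of cKO IL-33, 18 of WT IL-33 and 205 of WT vehicle, and most of these held a single UMI. In thinned cells an Igf1 UMI was present in 2.77% of cKO IL-33 (2.17% to 3.47%), 0.487% of WT IL-33 (0.223% to 0.922%) and 3.80% of WT vehicle (3.102% to 4.60%). Without thinning these were 6.03% in cKO IL-33, 0.817% in WT IL-33 and 7.57% in WT vehicle. Igf1 is also made by border macrophages, the macrophages of the meninges and vessels. Their 7 markers summed to 93.3 CPM in cKO IL-33, 14.3 CPM in WT IL-33 and 78.8 CPM in WT vehicle. The sum was thus lowest in WT IL-33, as Igf1 was, and Mrc1 alone had 53.4 CPM in WT vehicle. The marker Ms4a7 went the other way, with 2.72 CPM in WT IL-33 and 1.86 CPM in WT vehicle. All 7 were detected in cKO IL-33, 6 in WT IL-33, where Lyve1 was at 0, and 7 in WT vehicle. The cKO IL-33 cell with most Igf1 UMIs (9) held all 7 of these markers, and so did 1 WT vehicle cell with 5. Cells were set aside where at least 3 markers of a class of other leukocytes or border macrophages were detected. The same was done for cells with at least 2 of Pf4, Cd163, Lyve1 and F13a1. Such cells numbered 22 in cKO IL-33, 8 in WT IL-33 and 18 in WT vehicle. Without them Igf1 had 11.5 CPM in cKO IL-33, 1.99 CPM in WT IL-33 and 15.2 CPM in WT vehicle, and the ratio of WT IL-33 to WT vehicle was 0.132 (0.0829 to 0.200). The difference was about as large without those cells. Cells with fewer of these markers stayed in, and the part of border macrophages in the difference was not tested. In male-called cells the Igf1 difference was larger, with 6 Igf1 UMIs in WT IL-33 and 303 in WT vehicle, a ratio of 0.0757 (0.0275 to 0.167).

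By cluster, Igf1 was highest in cluster 3 among groups of at least 50 cells. It had 38.6 CPM there in cKO IL-33 (30.9 to 47.5), 18.3 CPM in WT IL-33 (5.95 to 42.8) and 33.8 CPM in WT vehicle (28.1 to 40.4). In WT IL-33 cluster 1 it had 1.53 CPM (0.874 to 2.48). Igf1 was lower in WT IL-33 than in WT vehicle in 4 of 4 clusters, but only in cluster 5, with 0 UMIs in WT IL-33 and 13 in WT vehicle, did the interval leave out 1. Of those 13, 9 came from 1 cell. In cluster 3 the ratio was 0.542 (0.173 to 1.30), an interval that lies above the 0.124 of the whole libraries. Without the top cell of each library in each cluster, a choice made after seeing the data, the upper limit of the ratio was 3.08 in cluster 5, 1.19 in cluster 2, 0.890 in cluster 3 and 0.746 in cluster 0. Which clusters had an interval below 1 thus depended on single cells. Over the 15 groups of library and cluster with at least 50 cells, the genes whose log2 level followed that of Igf1 most closely, of 5328 genes at 50 CPM in at least 1 group, were Cadm1 (r = 0.93), Neat1 (0.93) and the border macrophage marker Mrc1 (0.90). For Trem2 they were Cd300c2 (0.92), Ndfip1 (0.91) and Selenop (0.91), for Tyrobp Glmp (0.90), Pfdn5 (0.90) and Rpl36al (0.89), and for Cd9 Ost4 (0.91), Taf10 (0.86) and Tpi1 (0.85). For Cst7 they were Ifi207 (0.81), Fcgr4 (0.80) and Slfn2 (0.80), but that pattern rested partly on single cells. In cKO IL-33 cluster 5, the highest Cst7 level of the 15 groups, 1 cell held 22 of the 30 UMIs. Without it the level fell from 49.0 to 13.1 CPM. Without the top cell of WT vehicle cluster 5 it fell from 18.6 to 7.17 CPM. These groups share libraries and depth, and the correlations only describe them. Trem2 and Igf1 levels themselves had r = 0.75 over the 15 groups, and Trem2 and Cd9 had r = 0.056.

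Cst7 (chr2:150570415-150578944), a cystatin that inhibits lysosomal proteases, was higher in WT IL-33 than in the other libraries and was spread over many cells. It had 8.12 CPM in cKO IL-33 (6.84 to 9.57, 142 UMIs), 11.1 CPM in WT IL-33 (9.33 to 13.2, 135 UMIs) and 5.58 CPM in WT vehicle (4.55 to 6.78, 102 UMIs). WT IL-33 was 1.99-fold above WT vehicle (1.53 to 2.60), and cKO IL-33 lay in between, 1.45-fold above WT vehicle (1.12 to 1.90) and 1.37-fold below WT IL-33 (1.07 to 1.75). In female-called cells the interval of the ratio of cKO IL-33 to WT IL-33 included 1 (0.761, 0.537 to 1.10), and in male-called cells WT IL-33 was 2.42-fold above WT vehicle (1.74 to 3.34). One cKO IL-33 cell held 22 of its 142 UMIs. Without the top cell of each library the levels were 6.87 CPM in cKO IL-33, 10.7 CPM in WT IL-33 and 5.15 CPM in WT vehicle, and cKO IL-33 was 1.33-fold above WT vehicle (1.01 to 1.77). In thinned cells a Cst7 UMI stood in 1.77% of cKO IL-33 (1.30% to 2.35%), 3.35% of WT IL-33 (2.58% to 4.28%) and 1.56% of WT vehicle (1.12% to 2.11%). Without thinning these were 3.87% in cKO IL-33, 5.13% in WT IL-33 and 2.88% in WT vehicle. Nearly all cells carried microglial markers, so no cell class that should lack these genes was at hand to measure the share that free RNA gives, and its part in such shares was not tested. By cluster, Cst7 was higher in WT IL-33 than in WT vehicle in 4 of 4, with an interval above 1 in cluster 3 alone (3.19, 1.35 to 6.73, from 9 UMIs in WT IL-33 and 37 in WT vehicle). One cell held 4 of those 9, and without the top cell of each library in that cluster the ratio was 2.01 (0.611 to 5.17), with 5 UMIs in WT IL-33 and 33 in WT vehicle. In clusters 0 and 2 WT IL-33 had 2 Cst7 UMIs each. Without the top cells the ratio was 0.653 (0.0159 to 3.99) in cluster 0 and 0.866 (0.0198 to 6.25) in cluster 2. In cluster 5 it was 1.67 (0.331 to 7.74). The direction in clusters 0 and 2 thus rested on single cells.

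Spp1 (chr5:104435118-104441050), which encodes the secreted matrix protein osteopontin, had 5.55 CPM in cKO IL-33 (97 UMIs), 9.57 CPM in WT IL-33 (116 UMIs) and 5.69 CPM in WT vehicle (104 UMIs). The order rested on 1 cell. Of the 116 UMIs of WT IL-33, 78 came from a single cell of cluster 5 that carried 7 of the 8 microglial markers and none of the border macrophage markers, and 19 from another. Without the top cell of each library, Spp1 had 4.81 CPM in cKO IL-33, 3.13 CPM in WT IL-33 and 5.26 CPM in WT vehicle, and WT IL-33 was lowest, at 0.596 times WT vehicle (0.398 to 0.876). Counted by cells, 38 of cKO IL-33 (1.41%), 15 of WT IL-33 (0.681%) and 62 of WT vehicle (2.29%) had a Spp1 UMI. In thinned cells these shares were 0.692% in cKO IL-33 (0.411% to 1.09%), 0.487% in WT IL-33 (0.223% to 0.922%) and 1.33% in WT vehicle (0.928% to 1.84%). Cluster 3 held 66 of the 97 UMIs in cKO IL-33 and 50 of the 104 in WT vehicle.

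Lgals3 (chr14:47367751-47386160), which encodes galectin-3, a sugar-binding protein of phagocytes, had 1.49 CPM in cKO IL-33 (26 UMIs), 1.90 CPM in WT IL-33 (23 UMIs) and 3.61 CPM in WT vehicle (66 UMIs). One WT vehicle cell of cluster 5 held 36 of the 66, along with 8 Cst7 UMIs and 6 of the 8 microglial markers. Without the top cell of each library the levels were 1.14 CPM in cKO IL-33, 1.57 CPM in WT IL-33 and 1.64 CPM in WT vehicle, and the ratio of WT IL-33 to WT vehicle was 0.954 (0.507 to 1.75), against 0.525 (0.312 to 0.855) with all cells. Without a minimum level 1.61% of 18472 genes were at least 2-fold lower in cKO IL-33 than in WT vehicle, and Lgals3 was 1 of the 8 genes of the set among them, at 0.412 (0.251 to 0.657). Without the top cells that ratio was 0.697 (0.375 to 1.27). Gpnmb (chr6:49036546-49070929), which encodes a glycoprotein of lysosomes and the cell surface, had 1 UMI in cKO IL-33, 0 in WT IL-33 and 3 in WT vehicle. The count of 0 in WT IL-33 has a Poisson upper limit of 0.304 CPM, and the floor of 3 counts equals 0.247 CPM there. No difference was detectable at this depth.

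**Figure D5:**
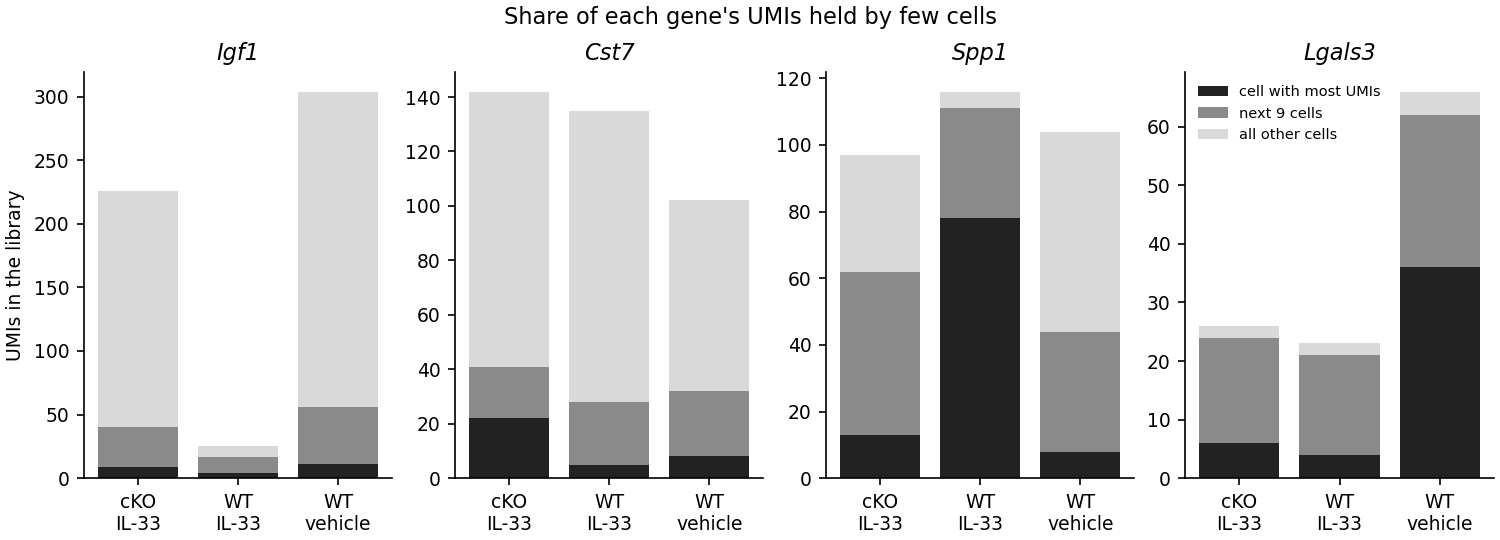
UMIs of Igf1, Cst7, Spp1 and Lgals3 in each library (vertical, bars from 0), split into the cell with most UMIs of the gene (black), the next 9 cells (grey) and all other cells (light grey). A single cell holds 78 of the 116 Spp1 UMIs of WT IL-33 and 36 of the 66 Lgals3 UMIs of WT vehicle, while Igf1 and Cst7 are spread over many cells.

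Few cells held UMIs of several of these genes, which the low share of cells with each rare gene already makes likely. Whether the genes stood together more or less often than their single shares give was not tested. Of the 6 genes Cst7, Spp1, Cd9, Gpnmb, Lgals3 and Igf1, at least 3 had a UMI in 3 of 2601 thinned cKO IL-33 cells (0.115%, 0.0238% to 0.337%), in 4 of 1849 from WT IL-33 (0.216%, 0.0590% to 0.553%) and in 14 of 2632 from WT vehicle (0.532%, 0.291% to 0.891%). At least 2 stood in 4.08% of cKO IL-33, 3.62% of WT IL-33 and 5.24% of WT vehicle cells, where Cd9, the common one, was nearly always 1 of them. Leaving Cd9 out, at least 2 of the other 5 stood in 4 cells of cKO IL-33, 4 of WT IL-33 and 17 of WT vehicle.

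Other genes of the same programme and pathways were read from 13 lists. Over all 4104 genes at 50 CPM, 12.8% were at least 2-fold higher and 8.75% at least 2-fold lower in WT IL-33 than in WT vehicle. Each list count of that comparison below stands against these shares. Of the 74 list genes other than the 8 that reached 50 CPM in WT IL-33 or WT vehicle, 17 were at least 2-fold higher and 10 at least 2-fold lower in WT IL-33. The median log2 difference of list genes at 10 CPM was -0.23, against 0.05 for all 8814 genes. Set against WT IL-33, 13 of 74 were higher and 15 lower in cKO IL-33, beside 10.0% higher and 11.4% lower of all 4151 genes. Set against WT vehicle, 0 of 68 were apart in cKO IL-33, beside 0.474% of all 3585 genes.

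Of the genes raised early in disease-associated microglia, 1 of 8 was higher in WT IL-33 than in WT vehicle and 1 was lower, with a list median of -0.34 on the log2 scale. Apoe, the lipoprotein and TREM2 ligand, had 4113 CPM in cKO IL-33, 2386 CPM in WT IL-33 and 5415 CPM in WT vehicle, 2.27-fold lower in WT IL-33 than in WT vehicle (2.24 to 2.30). Fth1, the ferritin heavy chain that stores iron, was 2.12-fold higher (2.09 to 2.15). Lysozyme 2 (Lyz2, 1.83-fold lower) and Timp2, a metalloproteinase inhibitor (1.70-fold lower), stayed under 2-fold. Apoe and Lyz2 were thus lower in WT IL-33, as Trem2 was, and Fth1 was higher.

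Of the later, Trem2-dependent genes, 2 of 11 were higher and 1 lower, with a median of 0.16. Lpl, the lipase that hydrolyses lipoprotein triglycerides, had 12.7 CPM in cKO IL-33, 255 CPM in WT IL-33 and 20.4 CPM in WT vehicle, 12.5-fold higher in WT IL-33 than in WT vehicle (11.2 to 14.0). Cd52, a small surface glycoprotein, was 4.13-fold higher (4.01 to 4.25), and Cadm1, an adhesion molecule, was 2.22-fold lower (2.02 to 2.44). Cathepsin L (Ctsl) was 1.69-fold higher. Itgax, which encodes CD11c and marks these cells in disease, had 5.09, 6.43 and 3.07 CPM in cKO IL-33, WT IL-33 and WT vehicle, and the receptor kinase Axl 30.2, 35.3 and 33.4 CPM, where the interval of WT IL-33 against WT vehicle included 1 (0.932 to 1.20). Clec7a was not analysed here. Lpl and Trem2, both genes of the later step, thus differed in opposite directions.

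Of 12 homeostatic genes that disease-associated microglia lower, 0 were higher and 5 lower in WT IL-33, beside 12.8% higher and 8.75% lower over all genes (P2ry12, P2ry13, Cd33, Gpr34 and Sall1), with a median of -0.93. The purinergic receptor P2ry12 had 3527 CPM in cKO IL-33, 916 CPM in WT IL-33 and 3602 CPM in WT vehicle, 3.93-fold lower in WT IL-33 than in WT vehicle (3.85 to 4.01). The lysophospholipid receptor Gpr34 was 3.30-fold lower, the sialic acid receptor Cd33 2.95-fold lower and the transcription factor Sall1 2.55-fold lower. The microglial marker Cx3cr1 went the other way, under 2-fold. It had 2822 CPM in cKO IL-33, 3118 CPM in WT IL-33 and 2593 CPM in WT vehicle. That was 1.20-fold higher in WT IL-33 than in WT vehicle (1.19 to 1.22). In cKO IL-33, 6 of these 12 were at least 2-fold above WT IL-33 and 0 below, beside 10.0% above and 11.4% below over all genes. Of the early postnatal tract genes 1 of 3 at 50 CPM was higher, and this was Lpl. In that list the phospholipase family gene Pld3 was 1.49-fold lower and the tetraspanin Cd63 1.19-fold higher.

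In the signalling chain below TREM2 and TYROBP, 6 of 14 genes were higher and 1 lower in WT IL-33 than in WT vehicle, with a median of 0.52, where 12.8% of all genes were higher and 8.75% lower. The Src family kinase Lyn, which phosphorylates the adaptor's motif, had 602 CPM in cKO IL-33, 1846 CPM in WT IL-33 and 479 CPM in WT vehicle, 3.85-fold higher in WT IL-33 than in WT vehicle (3.76 to 3.95). The PI3K adaptor Pik3ap1 was 3.79-fold higher. Sos1, a Ras exchange factor, Vav1, a Rac exchange factor, and the phosphatase Ptpn6 also passed 2-fold. The adaptor Lat2 was 2.62-fold lower (2.34 to 2.94). Lyn serves many receptors besides TREM2.

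Of the TREM2 ligands and shedding genes 2 of 5 were higher, among them Ms4a6d (2.19-fold), and 1, Apoe, was lower. Adam10, a protease that sheds TREM2, was 1.80-fold lower (1.71 to 1.89), while Adam17, also of this list, was 1.55-fold higher (1.47 to 1.62). Among other receptors that use TYROBP, Clec5a was 4.82-fold higher (4.43 to 5.25), with 43.2 CPM in cKO IL-33, 190 CPM in WT IL-33 and 39.4 CPM in WT vehicle, and Siglech was 1.94-fold lower. Clec5a and Trem2, which signal through 1 adaptor, thus differed in opposite directions.

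Around IGF1, the binding protein gene Igfbp4 was 3.34-fold higher in WT IL-33 (3.16 to 3.53), 1 of 3 genes at 50 CPM, and the receptors Igf1r and Insr were 1.92-fold and 1.88-fold lower. Of the osteopontin receptors 1 of 5 was higher and 1 lower. Cd44 had 2.002 CPM in cKO IL-33, 133 CPM in WT IL-33 and 2.08 CPM in WT vehicle, 63.9-fold higher in WT IL-33 than in WT vehicle (46.4 to 90.7), and the integrin Itgb5 was 2.003-fold lower. The integrins Itga9 and Itgav were 1.71-fold and 1.47-fold higher, under the 2-fold limit. The receptor Cd44 thus differed far more than its ligand gene Spp1. Among galectins 0 of 3 were higher and 1, Lgals9, was lower (2.92-fold, 2.73 to 3.13). Lgals3bp and Lgals8 were 1.77-fold and 1.58-fold lower. Of the tetraspanins related to Cd9, 3 of 9 were higher and 0 lower: Cd82 (3.79-fold), Tspan33 (3.15-fold) and Tspan3 (3.04-fold), all above the 1.11-fold of Cd9, while Tspan14 was 1.65-fold lower. Neither of the 2 cystatins at 50 CPM, Cst3 and Cstb, and none of the 3 genes of the MITF and TFE group, Lamp1, Ctsd and Tfe3, were 2-fold apart.

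For the same comparison, the median log2 difference was -0.56 for the tract genes, 0.63 for the ligands and shedding genes, -0.96 for the receptors that use TYROBP, -0.91 for the IGF1 genes and 0.55 for the osteopontin receptors. It was -0.82 for the galectins, -0.14 for the tetraspanins, 0.06 for the cystatins and -0.29 for the MITF and TFE group. These medians cover 2 to 10 genes at 10 CPM each, and the quartiles of all 8814 genes at that level lay at -0.43 and 0.52.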

How the data were processed

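Cells of 3 libraries, 1 per group, were profiled with 10x Chromium version 3.1 chemistry after homogenisation, a 22% Percoll gradient and sorting on CD45, per the labels' protocols. UMI counts per gene and cell were deposited as whole numbers, not normalised by the authors as far as the values show. A deposited annotation gives, per the file headers, library, sex call, cluster at resolution 0.4, cell-cycle phase and each cell's mitochondrial and ribosomal percent. Per the submitters' processing notes, GRCm38, Seurat 4.0.1 and Cell Ranger 5.0 were used, in roles not stated. The authors' filter on cells and their handling of doublets are unknown here, and no doublet caller was run.

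UMIs of all deposited cells were summed per library, or per library and cluster, and scaled to CPM. Exact Poisson intervals (levels), conditional binomial (Clopper-Pearson) intervals (ratios) and binomial intervals (shares) were computed at 95%, for counting error only, with numpy 2.4.6, scipy 1.17.1 and pandas 2.3.3. Log2 differences used a pseudocount of 1 CPM, so they understate the change of low genes. Totals ran from 12127214 to 18269042 UMIs, at which 3 counts, the floor for a count of 0, equal 0.164 to 0.247 CPM. Cells were thinned once to 3000 UMIs. The steps were tested on simulated data.

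The 8 genes and the 13 lists were chosen with earlier results of these data known. Named list genes are the up to 4 per list with the largest WT IL-33 to WT vehicle ratio in either direction at 50 CPM, plus Apoe, Lpl, Itgax and Axl, and for each of the 8 genes the 3 of most similar pattern, omitted for Spp1, Lgals3 and Gpnmb, whose UMIs come from few cells. P2ry13, Sos1, Vav1 and Ptpn6 fall outside that rule and were chosen after their values were seen, because they passed 2-fold. Adam17 falls outside it too and was named after its value was seen, because it differed from Adam10 in direction. So does Cx3cr1, named after its value was seen because it differed in direction from the other named homeostatic genes. Some list genes are counted but not reported here by name. Gene positions follow GENCODE on GRCm38 and promoters RefSeq on GRCm38.p6, with a window for 7 of the 8 genes, kept to the 250 bases before the start. Protein sequences were not used here.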

Additional observations from a re-analysis of the deposited data

Results flagged for a closer look

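The Cd9 ratio of cKO IL-33 to WT vehicle lay on opposite sides of 1 in different deposited clusters, with intervals that left out 1 on both sides. It was 0.922 in cluster 0 (0.885 to 0.960, cKO IL-33 4444 UMIs, WT vehicle 4779) and 0.872 in cluster 2 (0.816 to 0.932, cKO IL-33 2055 UMIs, WT vehicle 1588), but 1.07 in cluster 3 (1.01 to 1.13, cKO IL-33 2096 UMIs, WT vehicle 3073). The difference between these clusters was not tested, since each library is 1 sample and the intervals hold counting error only.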

How the results depend on the processing

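No paired analysis was possible because each group is 1 library. The calls depended on the minimum level and the fold. With a minimum of 10 CPM, 1951, 1839 and 79 genes were at least 2-fold apart (WT IL-33 against WT vehicle, cKO IL-33 against WT IL-33, cKO IL-33 against WT vehicle), against 883, 891 and 17 at 50 CPM, with 1, 1 and 0 of the 8 genes among them, against 0 in each at 50 CPM. In the same order of comparisons, with no minimum there were 3633, 3406 and 600, with 1 of the 8 in each, and 45, 44 and 4 list genes against 27, 28 and 0. At 1.5-fold, in that order, there were 1729, 1695 and 82 genes and 46, 50 and 1 list genes. Spp1 changed direction with few cells. Its log2 difference of WT IL-33 from WT vehicle was 0.66 with all cells, but -1.28 in G1-called cells, -1.61 without the 10 cells with most of its UMIs and -0.60 without the single top cell, a choice added after seeing the data. The cKO IL-33 difference from WT IL-33 was -0.69 for Spp1 with all cells, but 1.62, 1.09 and 0.49 under the same settings. Over the alternatives, the WT IL-33 difference from WT vehicle lay between -0.69 and -0.54 for Trem2, between 0.057 and 0.23 for Cd9, between 0.44 and 1.15 for Cst7 and between -3.14 and -1.14 for Igf1. Of 232 values of the 8 genes under all alternatives, 195 moved by less than the counting interval reaches to either side, on the log2 scale, 31 by more, and 6, all of Spp1, changed direction where the interval of the ratio had left out 1. Where it had not, 3 more changed sign, 1 each of Spp1, Lgals3 and Gpnmb. Of 2760 values of list genes, 2342 moved by less and 418 by more. The 195 and the 2342 include genes with 0 UMIs in a library, whose interval is open-ended on the log2 scale. Such values could not move by more than the interval. Of the 8 genes this holds for Gpnmb in both comparisons with WT IL-33, with 10 values each. No difference of a list gene that was 2-fold apart at 50 CPM changed direction, and 64 values of the others changed sign. Gpnmb, Lgals3 and Spp1 are limited by depth.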
